A study of Mus musculus with 19 samples.

Results

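The CC chemokine interval on mouse chromosome 11 from 83400000 to 83590000 (mm39) holds Ccl5, Ccl9, Ccl6, Ccl3 and Ccl4, in that order. Its members were the accessible regions of the series' consensus peak list that shared any base with the interval, 66 of 140383 peaks. The assay was ATAC-seq, a map of open chromatin made with the Tn5 transposase, which cuts and tags DNA that nucleosomes leave bare. The cells were bone marrow-derived macrophages, primary cells grown from marrow in culture. There were 19 samples in 10 groups. Wild-type cells carrying Csf1r-Cre (9 samples) and Smarca5-/- cells from Smarca5lox/lox Csf1r-Cre mice (10 samples) were untreated, given LPS at 10 ng/ml, or given IFNb at 100 U/ml. Each agent was given for 1 or 2 h. There were 2 samples in 9 groups and 1 sample in wild-type cells given IFNb for 1 h. Cells of both genotypes received 4-hydroxytamoxifen daily during the 7 days of differentiation, and the Cre was under control of Csf1r, a gene of the macrophage lineage. Smarca5 encodes an ATPase of ISWI complexes, which space and slide nucleosomes.

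The list gives 1 set of values per peak over the whole series and names no sample, group or replicate. Values by sample, replicate errors and contrasts of genotype or treatment could therefore not be given, and the depth behind each peak is unknown. The macrophage identity of the cells could not be checked against marker genes, because gene positions in the build of the list were not used here beyond those of the 5 chemokines.

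CC chemokines are small secreted proteins that draw leukocytes along a gradient through G protein-coupled receptors. Ccl3, Ccl4 and Ccl5, once known as MIP-1 alpha, MIP-1 beta and RANTES, recruit monocytes and T cells. They are textbook inducible genes of macrophages, in which LPS acts through Tlr4 and NF-kB, and Ccl5 also responds to interferon through IRF factors. Ccl6 and Ccl9 are rodent chemokines that act through Ccr1 and are made by myeloid cells without stimulation. Accessible regions at such genes mark promoters and enhancers, where transcription factors hold nucleosomes away.

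RefSeq promoter sequences, each from 250 bases before to 50 after the gene's start, were at hand for 3 of the 5 genes, Ccl3, Ccl6 and Ccl9. All 3 lie on the minus strand, and all sequences here are written 5′ to 3′ along the gene. They belong to the build GRCm38.p6, so their coordinates were not set against the peaks, which are in mm39. The first is shown because Ccl3 lies beside the peak of highest −log10 q in the interval, and the second because it was the one promoter of the 3 with matches to the motifs searched. Capitals mark those matches. The Ccl3 promoter is at chr11:83649329-83649628 and the Ccl9 promoter at chr11:83578587-83578886 in GRCm38.p6.
Ccl3: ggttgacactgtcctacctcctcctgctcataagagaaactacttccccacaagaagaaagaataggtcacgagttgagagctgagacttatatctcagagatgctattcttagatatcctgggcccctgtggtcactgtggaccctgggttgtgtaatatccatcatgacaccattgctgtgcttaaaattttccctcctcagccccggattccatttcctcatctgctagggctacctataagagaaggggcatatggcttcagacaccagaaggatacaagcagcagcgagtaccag
Ccl9: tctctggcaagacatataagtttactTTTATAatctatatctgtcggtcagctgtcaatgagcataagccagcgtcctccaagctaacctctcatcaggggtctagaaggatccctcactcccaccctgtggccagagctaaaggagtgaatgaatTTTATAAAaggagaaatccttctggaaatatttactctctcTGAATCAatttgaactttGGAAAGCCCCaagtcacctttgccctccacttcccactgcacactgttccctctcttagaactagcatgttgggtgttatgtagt

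The motifs were searched on both strands. The NF-kB motif was matched once in Ccl9, on the reverse strand at bases 216 to 225 counted from the 5′ end of the window, and 0.807% of 32851 promoters of the same length held a match. An AP-1 motif, searched as TGANTCA with any base at N, was matched as TGAATCA at bases 198 to 204 of the Ccl9 promoter. Any such match was held by 7.81% of all promoters. The TATA box letters TATAAA were matched 3 times in Ccl9, against 13.6% of all promoters holding any. The matches at bases 157 to 162 and 159 to 164 overlap on opposite strands. Ccl3 and Ccl6 held no match to these, and none of the 3 promoters matched the IRF motif, which 3.44% of promoters held. None matched the PU.1 motif GAGGAAGT (3.20%) or the C/EBP motif TTGCNNAA (10.8%) either. These matches describe letters and show no binding.

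Ccl9 and Ccl6 shared a stretch around their starts. A local alignment of their promoters ran over 74 columns with 59 identical bases, 79.7%. It covered bases 233 to 299 of the Ccl9 window and 192 to 265 of the Ccl6 window. The alignments of either with Ccl3 ran over only 11 and 12 columns. In the shared stretch below, capitals mark bases that are identical in the alignment.
Ccl9: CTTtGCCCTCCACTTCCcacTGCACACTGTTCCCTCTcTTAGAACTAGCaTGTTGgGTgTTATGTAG
Ccl6: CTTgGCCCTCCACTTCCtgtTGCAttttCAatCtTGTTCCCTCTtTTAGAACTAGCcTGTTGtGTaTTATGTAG

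The chemokine interval was dense in accessible regions, and these covered 17990 bp, 9.47% of its length. Over the assembled chromosomes, from first to last peak, peaks covered 1.32%. The interval was compared with 14315 windows of its own length, 190 kb, laid end to end from the start of each assembled chromosome. The median window held 4 peaks and the middle 50% of windows held 0 to 18. None of these windows held as many as 66 peaks (0.00%, also 0.00% of the 642 windows of chromosome 11, whose median was 14). The fullest, with 64 peaks, began at 83410001 on chromosome 11 and lay mostly within the interval itself. The interval was chosen around its genes, whereas these windows fall anywhere. When a window was started at every peak instead, 11 of 140271 windows held at least 66 peaks. Of these 11, 3 shared bases with the interval and 8 lay elsewhere. Those 8 all lay at 1 place, overlapping the fullest of them, with 69 peaks from 117739374 to 117929374 on the same chromosome. Neighbouring peaks in the interval were less than 1000 bp apart in 22 of 65 cases, 33.8%, against 18.6% in the list. The median distance between neighbours was 1598 bp, against 5089 bp in the list. The longest stretches without a peak were 10346 bp and 9654 bp. They lie on either side of the single peak at chr11:83566603-83566841, above Ccl4.

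**Figure D1:**
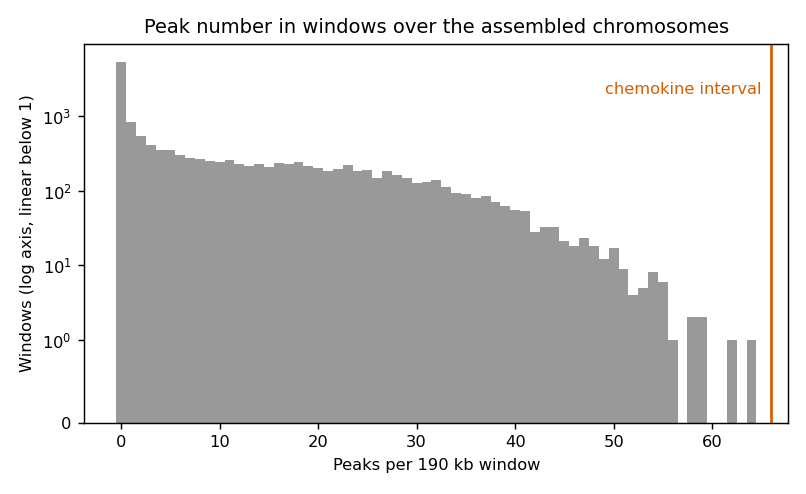
Number of 190 kb windows over the assembled chromosomes (vertical axis, log scale that is linear below 1) by the number of peaks they hold (horizontal axis). The line marks the 66 peaks of the chemokine interval, and the fullest window held 64.

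Just outside the interval, the nearest peaks were chr11:83394314-83394472, with a fold of 10.3 and a −log10 q of 32.9, and chr11:83594504-83594971, with a fold of 24.6 and a −log10 q of 508. Just inside, they were chr11:83400482-83400609, with a fold of 8.68 and a −log10 q of 28.7, and chr11:83587363-83587604, with a fold of 11.3 and a −log10 q of 38.4.

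Peaks of the chemokine interval had low folds and high −log10 q. Fold is the authors' enrichment of a peak over its background, and −log10 q is the authors' measure of how far the peak stands beyond chance, which grows with the number of reads. The median fold was 7.80, with quartiles of 5.22 and 11.7, against a median of 9.85 and quartiles of 6.71 and 15.7 over all peaks. Folds of 20 or more were found for 4 of the 66 peaks, 6.06%, against 15.0% of all peaks. The median −log10 q was 92.1, with quartiles of 35.0 and 245, against a median of 45.3 and quartiles of 22.4 and 116 over all peaks. A −log10 q of 200 or more was found for 20 of the 66 peaks, 30.3%, against 15.6% of all peaks. Widths were close to those of the list, with a median of 204 bp against 196 bp. Across peaks, which are not independent, Spearman's rho of fold with −log10 q was 0.65 in the interval and 0.84 in the list.

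To set peaks of like fold beside each other, the −log10 q of each peak was divided by the median −log10 q of all peaks in the same hundredth of the list by fold. This ratio and its cut of 5 were not among the measures planned beforehand. The ratio had a median of 3.05 in the interval, while the middle 50% of the list lay between 0.825 and 1.75. It was at least 5 in 18 of the 66 peaks, 27.3%, against 4.19% of all peaks and 6.63% of those on chromosome 11. Crowding of peaks went with the ratio in the rest of the list. Among the 15642 peaks in windows that held 40 or more peaks, leaving out those of the interval, the median ratio was 1.63, and 10.6% had a ratio of at least 5. Their median fold was 8.35 and their median −log10 q 54.9. Among the 14387 peaks in windows of 1 to 9 peaks, the median ratio was 0.839, and 0.758% reached 5. The part of crowding in the values of the chemokine interval was not tested.

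**Figure D2:**
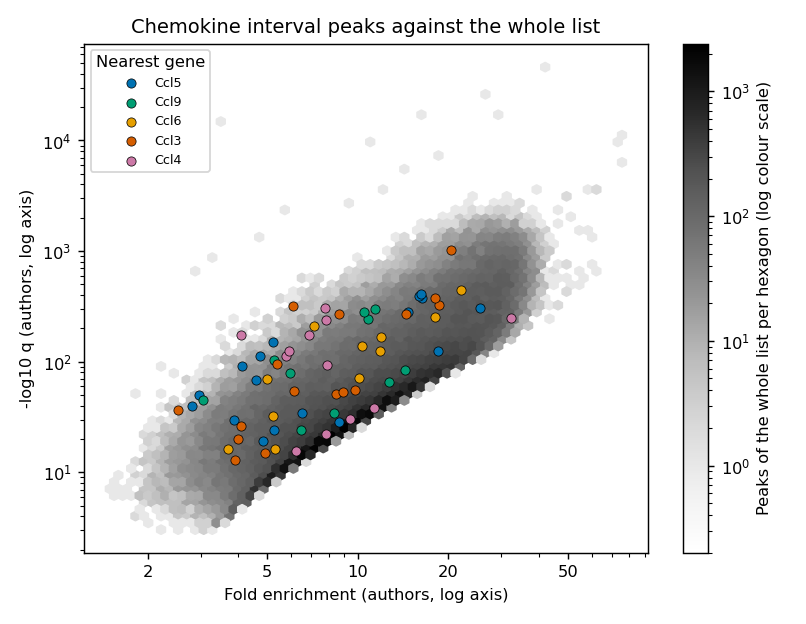
Fold (horizontal axis) against −log10 q (vertical axis), both the authors' values on log axes, for all 140383 peaks as grey hexagons and the 66 interval peaks as points coloured by nearest gene. Many chemokine points lie at the upper left of the cloud, with a high −log10 q for their fold.

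Each peak was assigned to the gene nearest to its summit, the position of highest signal. Distances ran to the span of Ccl5 and to a single given position, the lower end, of each other gene. The rule for the interval gives both ends of Ccl5, but only approximate lower ends of the other genes. Ccl5, Ccl9, Ccl6 and Ccl3 are read towards lower coordinates, so their lower end is the end of the gene, and Ccl4 is read upwards, so its lower end is its start. The starts of Ccl3, Ccl6 and Ccl9 lie above the given positions by a length not used here. A peak between neighbouring genes could therefore be assigned otherwise if full gene spans were used, which was not tested. There were 17 peaks nearest Ccl5, 10 nearest Ccl9, 11 nearest Ccl6, 16 nearest Ccl3 and 12 nearest Ccl4. These numbers follow the space between the genes as well as the number of accessible regions. The median fold was 5.28 for Ccl5, 7.29 for Ccl3, 7.80 for Ccl4, 9.43 for Ccl9 and 10.1 for Ccl6. For each gene the folds spread widely, for example from 3.70 to 22.1 around Ccl6 and from 4.10 to 32.2 around Ccl4, so the ranges of all 5 genes overlapped.

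**Figure D3:**
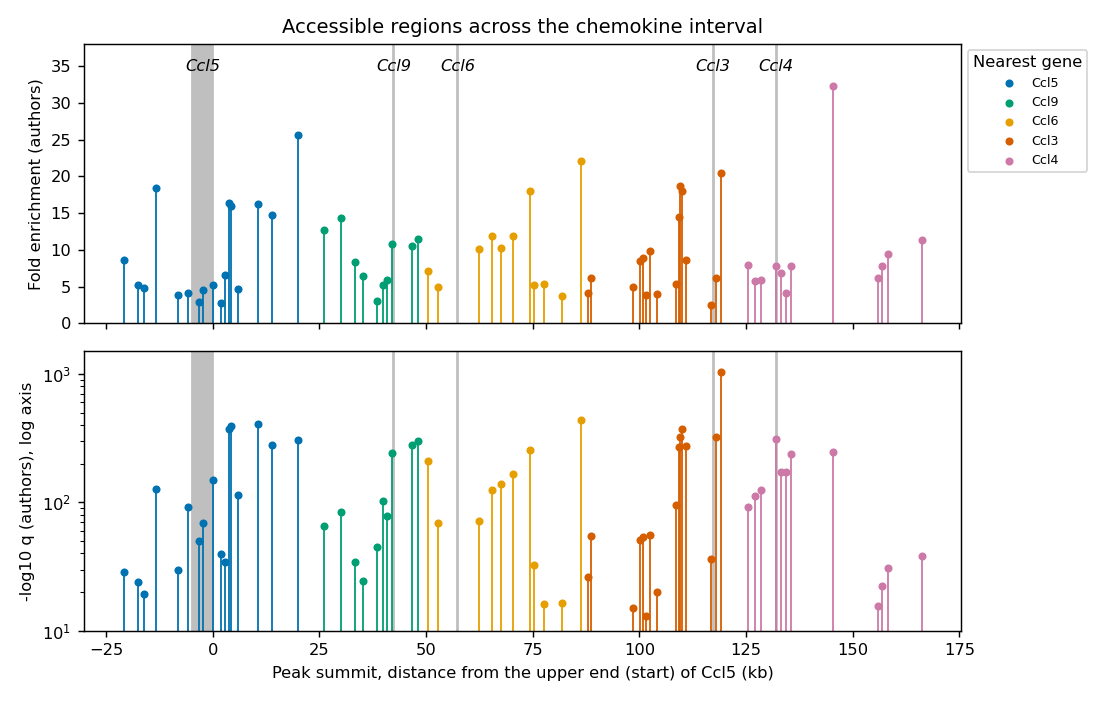
Fold (upper panel) and −log10 q (lower panel, log axis) of the 66 peaks, each a stem coloured by nearest gene, by the distance of the summit from the start of Ccl5 in kb. Grey bars mark the span of Ccl5 and the given lower ends of the other genes. The highest fold, 32.2, stands alone above Ccl4, and the highest −log10 q, 1032, stands just above the lower end of Ccl3.

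At Ccl3, 3 peaks lay within 5000 bp of the given lower end and covered 2075 bp. The peak chr11:83540008-83540768, 761 bp wide, had a −log10 q of 1032 and a fold of 20.4. It lies between 1338 and 2098 bp above the given lower end of Ccl3, on the side of the gene's start. Its −log10 q was higher than that of 98.9% of all peaks, and 2.34 times the next value in the interval, whereas its fold was higher than that of 85.7%. Between it and the lower end, chr11:83539181-83539347 had a −log10 q of 322 at a fold of only 6.11. That is 20.6 times the median of peaks of like fold and the highest such ratio in the interval. The widest peak of the interval, chr11:83537635-83538781 with 1147 bp, reaches across the lower end of Ccl3. It also had the lowest fold, 2.53, with a −log10 q of 36.4. The surroundings of Ccl3 thus held the highest −log10 q, the lowest fold and the greatest width among the 66 peaks.

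A second group of peaks lies below Ccl3, beyond the end of the gene. The 3 peaks chr11:83530499-83530573, chr11:83530718-83530862 and chr11:83531035-83531520 are separated by only 144 and 172 bp, the shortest distances in the interval. Their folds were 14.5, 18.7 and 18.04, and their −log10 q values 271, 325 and 376. The next peak, chr11:83532105-83532253, had a fold of 8.67 and a similar −log10 q of 273. Further from Ccl3, the 6 peaks that start between 83519646 and 83525340 had lower values, with −log10 q from 13.0 to 55.7. One of these, chr11:83522756-83522891, had the lowest −log10 q of the interval.

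At Ccl4 the start was covered. The peak chr11:83553142-83553477 had its summit 52 bp below the given start, a fold of 7.76 and a −log10 q of 309. Its −log10 q was above 90.1% of all peaks and its fold above 34.4%, and its −log10 q was 13.6 times that of peaks of like fold. Its summit lies 12922 bp above that of the highest peak at Ccl3, and the given lower ends of the genes are 14740 bp apart. A ratio of at least 5, the unplanned cut, was reached by 4.19% of all peaks and 27.3% of the interval's peaks. Elsewhere in windows of 40 or more peaks, 10.6% reached it. All 6 peaks within 5000 bp of the Ccl4 start exceeded this cut, with ratios from 7.18 to 13.6. Their folds ran only from 4.10 to 7.85. The highest of these folds, 7.85, belonged to chr11:83556649-83556948, with a −log10 q of 238. All 6 folds lie below the median of the list, 9.85.

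The most enriched peak of the interval was far from the Ccl4 start. At chr11:83566603-83566841 the fold was 32.2, higher than that of 98.4% of all peaks, with a −log10 q of 246. Its −log10 q was only 0.481 times the median of peaks of like fold, the lowest ratio in the interval. The peaks near the Ccl4 start, in contrast, combined low folds with a −log10 q of 112 to 309. The last 4 peaks of the interval, which start from 83577188 on, had −log10 q values from 15.5 to 38.4 and ratios from 0.889 to 0.999.

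**Figure D4:**
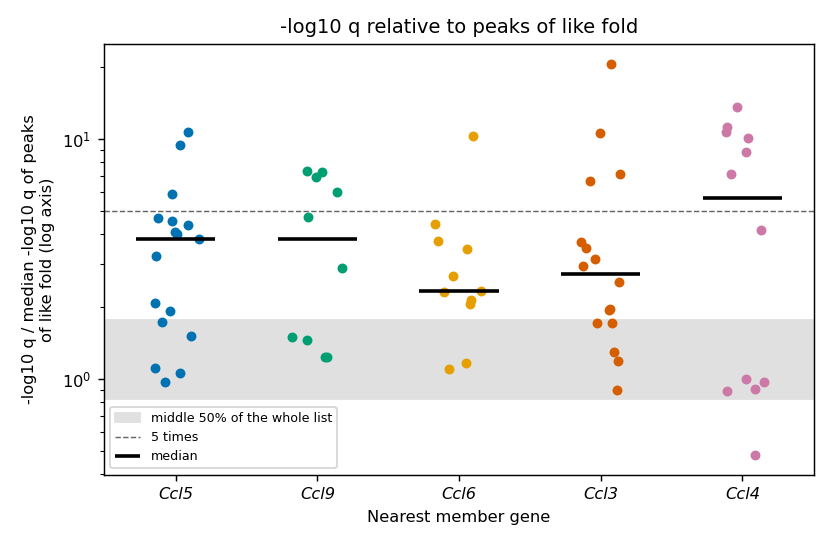
Ratio of −log10 q to the median of peaks of like fold (vertical axis, log scale) for each of the 66 peaks by nearest gene, with the median per gene as a bar. The grey band is the middle 50% of all peaks, 0.825 to 1.75, and the medians of all 5 genes lie above it, from 2.32 for Ccl6 to 5.67 for Ccl4.

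At Ccl5 the peak beside the start had a low fold, and peaks of higher fold were found both upstream and beyond the gene's end. The peak chr11:83421369-83421558 begins 25 bp above the upper end of Ccl5, which is its start, and its summit lies 167 bp above it. It had a fold of 5.22, above 12.02% of all peaks, and a −log10 q of 149, above 79.8%. That is 10.7 times the −log10 q of peaks of like fold. Within the 4741 bp of the gene, 2 peaks covered 857 bp: chr11:83417863-83418431 had a fold of 2.95, among the 3 lowest of the interval, and chr11:83418849-83419136 one of 4.60. In −log10 q, these 2 peaks reached 50.4 and 68.7. Below the gene, beyond its end, chr11:83408080-83408231 had a fold of 18.5 and a −log10 q of 126. The other peaks there had folds from 3.87 to 8.68 and −log10 q values from 19.2 to 91.5. One of them, chr11:83414672-83415629, was 958 bp wide, with a ratio of 5.92 to peaks of like fold.

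Upstream of Ccl5 some peaks had higher folds and others lower ones than the peak beside the start. The pair chr11:83425220-83425280 and chr11:83425520-83425765 had folds of 16.3 and 16.0 and −log10 q values of 375 and 397, with summits 3884 and 4348 bp above the start. The first, 61 bp wide, was the narrowest of the interval. Further up, chr11:83431859-83432194 had a fold of 16.2 and a −log10 q of 409, at 10633 bp. At 13908 bp, chr11:83435139-83435472 had a fold of 14.7 and a −log10 q of 282. At 19999 bp, chr11:83441050-83441660, 611 bp wide, had a fold of 25.6, the second highest of the interval, and a −log10 q of 305. These 5 peaks were singled out after their values were seen. The other 3 upstream peaks nearest Ccl5 had lower folds and −log10 q. The fold was only 2.82 at chr11:83423142-83423344, 6.53 at chr11:83424164-83424311 and 4.73 at chr11:83427085-83427541, the last at 5939 bp. The last had a −log10 q of 114, and the first and second had 39.9 and 34.5. In ratio to peaks of like fold the last was higher, at 9.41, against 0.970 to 4.53 for the 5 peaks singled out. The first and second had ratios of 3.24 and 1.93. Which gene any of these regions acts on was not measured.

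Around Ccl9, 3 of the 10 peaks had a −log10 q of 200 or more, near the interval's share of 30.3%, against 15.6% of all peaks. All 3 are described first. The peak nearest its given lower end, chr11:83463079-83463399, had its summit 441 bp below that end, a fold of 10.9 and a −log10 q of 243. Above the lower end, chr11:83467926-83468304 and chr11:83469202-83469471 had folds of 10.5 and 11.4 and −log10 q values of 280 and 301. These 3 peaks had ratios of 6.03, 7.30 and 6.96 to peaks of like fold, close to each other. The other 7 peaks lay below the lower end, towards Ccl5, with −log10 q values of 103 or less. From the nearest outwards, the −log10 q was 78.4 at chr11:83462181-83462341, 103 at chr11:83461158-83461290 and 44.8 at chr11:83459756-83459969. It was 24.4 at chr11:83456484-83456643 and 34.6 at chr11:83454665-83454828. Further out it was again higher, 83.9 at chr11:83451335-83451515 and 65.2 at chr11:83447204-83447527, so it did not fall steadily with distance. The first of these 2 outer peaks had the highest fold of those nearest Ccl9, 14.3. The highest ratio of those nearest Ccl9, 7.35, belonged to chr11:83461158-83461290, at a fold of 5.27. High ratios were thus not limited to the 3 peaks described first.

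The given lower end of Ccl6 is the gene's end, and the position of its start was not used. No peak lay within 2000 bp of that lower end, and the nearest summit was 4480 bp below it. That peak, chr11:83474124-83474322, had a fold of 5.00 and a −log10 q of 69.2. Below it, towards Ccl9, chr11:83471737-83471952 had a fold of 7.15 and a −log10 q of 211. Its ratio to peaks of like fold, 10.3, was the only one above 5 among the peaks nearest Ccl6. The first peak above the lower end, chr11:83483816-83483975, begins 5116 bp above the lower end, on the side of the gene's start. It had a fold of 10.1 and a −log10 q of 71.2. From there, folds were 11.8 at chr11:83486630-83486834, 10.3 at chr11:83488544-83488898, 11.9 at chr11:83491540-83491726 and 18.02 at chr11:83495563-83495762. Their −log10 q values were 125, 139, 168 and 254. The 3 peaks that follow, chr11:83496499-83496632, chr11:83499019-83499135 and chr11:83503034-83503242, had lower folds of 5.23, 5.31 and 3.70, with −log10 q values of 32.3, 16.3 and 16.4. The peak chr11:83507385-83507831, assigned to Ccl6 but in the wide space towards Ccl3, had a fold of 22.1 and a −log10 q of 441, the second highest in the interval. The Ccl6 peaks had the highest median fold of the 5 genes, 10.1, and the lowest median ratio, 2.32.

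The order of the genes depended on the measure and on the distance searched. These distances run from both ends of Ccl5, from the start of Ccl4 and from the gene end of Ccl3, Ccl6 and Ccl9, so they do not cover like parts of each gene. Within 5000 bp of the given positions, the highest fold was 20.4 for Ccl3, 16.3 for Ccl5, 10.9 for Ccl9, 7.85 for Ccl4 and 5.00 for Ccl6. The order by highest −log10 q was Ccl3 with 1032, Ccl5 with 397, Ccl4 with 309, Ccl9 with 280 and Ccl6 with 69.2. Ccl4 and Ccl9 change places between both orders. Within 2000 bp, the highest fold at Ccl5 was only 5.22, below Ccl9 with 10.9 and Ccl4 with 7.76, and Ccl6 had no peak. Within 10000 bp, Ccl6 had 11.8, above Ccl9 with 11.4 and Ccl4 with 7.93, and Ccl5 had 18.5, at a peak beyond its end. Ccl3 had 20.4 at all 3 distances, the highest of the 5 genes each time. With 1 value per peak there is no replicate error to say which of these neighbours differ, and the Ccl6 value within 5000 bp rests on a single peak.

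The deposited scores carry a trace of averaging. A mean of whole numbers becomes whole when multiplied by the number averaged. A score that becomes whole only at a multiplier of 20 cannot be a mean of fewer than 10 values, if each value is whole or the mean of a pair. This held for 11 of the 66 peaks, 16.7%, near the 14.6% of all peaks. A low multiplier sets no upper limit on the number averaged. A multiplier of 1 or 2 was found for 18 peaks, 27.3%, against 31.0% of the list. Of the 11 peaks with a multiplier of 20, 5 were nearest Ccl6, 3 nearest Ccl4, 2 nearest Ccl5, 1 nearest Ccl9 and 0 nearest Ccl3. They include the peak at the Ccl4 start and the 3 of highest fold in the interval, at 32.2, 25.6 and 22.1. The multiplier was 6 for the peak beside the Ccl5 start and 4 for the highest peak at Ccl3. The list does not say which samples entered any mean.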

How the data were processed

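ATAC-seq was deposited as 1 consensus peak list, and 0 columns of per-sample values were used. Per the submitters' processing notes, the build was mm39 and the tools included MACS2 2.2.7.1, STAR 2.7.9a, deepTools 3.5.1 and Picard 2.27.4. What each tool did, read shifting for Tn5, peak thresholds and how samples were combined are not stated there. The authors' score was at most 1 below their −log10 q times 10. The deposited fold is the signal value of the narrowPeak format, where MACS2 writes enrichment over a local background, so the fold also depends on signal around the peak. Starts were read as counted from 1: then 0 summit offsets reach the peak width, against 74 when counted from 0.

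Samples were grouped by title. No test was made, since the list names no sample. Peaks were ranked within the list, in 100 bins of fold for the ratio and with multipliers of 1 to 20 (tolerance 1e-06). Named peaks were those nearest each gene, of highest fold or −log10 q within 5000 bp of it, and the extremes of the interval. Other peaks, and those of highest ratio, were chosen after their values were seen. Members and lists were chosen with earlier results of these data known. Peaks at promoters, at other chemokine genes and at marker genes of cell types are not analysed here, because the gene tables used belong to GRCm38.p6. Promoters were aligned with Biopython 1.88 (local mode), and figures were drawn with matplotlib 3.10.9. Other computation used scipy 1.17.1, pandas 2.3.3 and numpy 2.4.6 under Python 3.11.15. The code for the ratio and multiplier was checked on simulated data with known answers, which does not test what these measures mean.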

Additional observations from a re-analysis of the deposited data

How the results depend on the processing

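Of 44 alternative values over 21 results, 25 stayed within 1.5 times for counts and shares, within the 95% order-statistic interval of the median, or unchanged for highest folds. The order-statistic interval treats peaks as independent, which they are not, so it served only to sort the values. With only peaks at or above the list's median −log10 q, the chemokine interval held 45 peaks with a median fold of 9.79. With only peaks at or above the list's median fold, the median −log10 q was 271. Both follow from removing weak peaks, and neither can be set against the unfiltered values of the list. Windows that start at every peak, chosen after seeing the data, held at least 66 peaks in 0.00784% of cases. The median ratio was 3.10 with 50 bins of fold and 3.07 without peaks nearest Ccl3 or Ccl4, both also chosen after seeing the data. The other 16 values that moved concern single genes and follow from the flank or the measure of strength. Within 2000 bp, Ccl6 had 0 peaks around its given lower end, and the highest fold at Ccl5 was 5.22. Within 10000 bp it was 18.5 at Ccl5 and 11.8 at Ccl6, above Ccl9 at 11.4. Peaks at promoters under another window could not be computed. No paired analysis was possible because no sample is named in the list. Depth is unknown, so a missing peak may also be a region read too thinly to call.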
